A study of Mus musculus with 6 samples.

Results

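The genes described here encode the machinery that brings proteins into mitochondria. They were chosen by name and annotation, with earlier results of these data known: protein-coding rows of the deposited table whose symbol starts with Timm or Tomm followed by a digit, together with Pam16, Dnajc19, Grpel1, Samm50, Pmpca, Pmpcb, Chchd4 and Gfer. The rule found 33 genes among 51912 rows, of which 21870 are annotated as protein coding. Levels are in TPM, read counts scaled by gene length and library, and a mean of at least 1 TPM over all libraries was required for a test, and 26 of the 33 genes reached it. RNA was sequenced in bulk from 6 libraries of mouse bladder tumor organoids, cultures in which tumor cells grow as small 3-dimensional bodies. Organoids from C57BL/6 mice were treated with SRT1720, a small molecule made to activate SIRT1, a deacetylase, in 3 libraries and with vehicle in 3 libraries. Each library held 18159660 to 22722475 reads, as recovered from the table. The labels used here give no dose, no duration of treatment and no origin of the tumors. Nothing there says that libraries of 1 group stem from different cultures or mice. The p-values therefore speak only of library-to-library spread, which may be technical in part, and libraries of 1 group differed beyond sampling noise.

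Nearly all mitochondrial proteins are made in the cytosol and enter the organelle through the TOM complex of the outer membrane, where receptors recognize precursors and the Tomm40 channel lets them pass. Precursors with a cleavable presequence then move through the TIM23 translocase and are pulled into the matrix by an ATP-driven motor, where the processing peptidase removes the presequence. Carrier proteins take another path, with small TIM chaperones guiding them across the intermembrane space to the TIM22 translocase, while the SAM complex, with Samm50 as its core, inserts barrel-shaped proteins into the outer membrane.

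Most import genes had higher mean values with SRT1720 than with vehicle, but no single gene passed the adjusted test. Of the 26 genes tested, 23 had a log2 fold change (SRT1720 minus Vehicle, on log2(TPM + 1)) above 0, against 54.8% of all 9287 genes tested. The median log2 fold change was 0.24 for the import genes and 0.035 for all genes tested. In 8 import genes (30.8%) the SRT1720 libraries all lay above the Vehicle libraries, and in 0 they all lay below, while 12.1% of all genes tested lay above without overlap and 7.75% below, 19.9% in either direction. These 8 genes were Tomm40, Tomm22, Tomm5, Samm50, Timm23, Timm22, Timm8a1 and Timm9. Of these, Timm9 reached the filter only through its SRT1720 libraries, with means of 1.44 TPM with SRT1720 and 0.957 TPM with vehicle. Its place in this count therefore depends on the group where it is higher. None of the 26 passed limma's test after Benjamini-Hochberg adjustment over all genes (adjusted p = 0.279 to 0.968), nor did any other gene (0.0% of those tested). At an unadjusted p under 0.05 there were 7 import genes (26.9%), Timm17a and the 8 without Samm50 and Timm9, all higher with SRT1720, against 7.86% of all genes in that direction and 12.4% in either. That count was 1 without SRT1720 1 and 1 without Vehicle 3, where 1010 and 1007 of all 9287 genes reached it. In the fits without SRT1720 1 and without Vehicle 3 the import share was thus below that of all genes. With all libraries 1153 of all genes reached it (12.4%), and the import share (26.9%) was above theirs. The import count was 3 without SRT1720 2 and 3 without Vehicle 1 (523 and 1054 of all genes). It was 4 without SRT1720 3 (837 of all genes) and 6 without Vehicle 2 (1044 of all genes). Each of these fits has fewer libraries. Values of bulk libraries cannot tell fewer cells of a type from less RNA per cell.

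**Figure D1:**
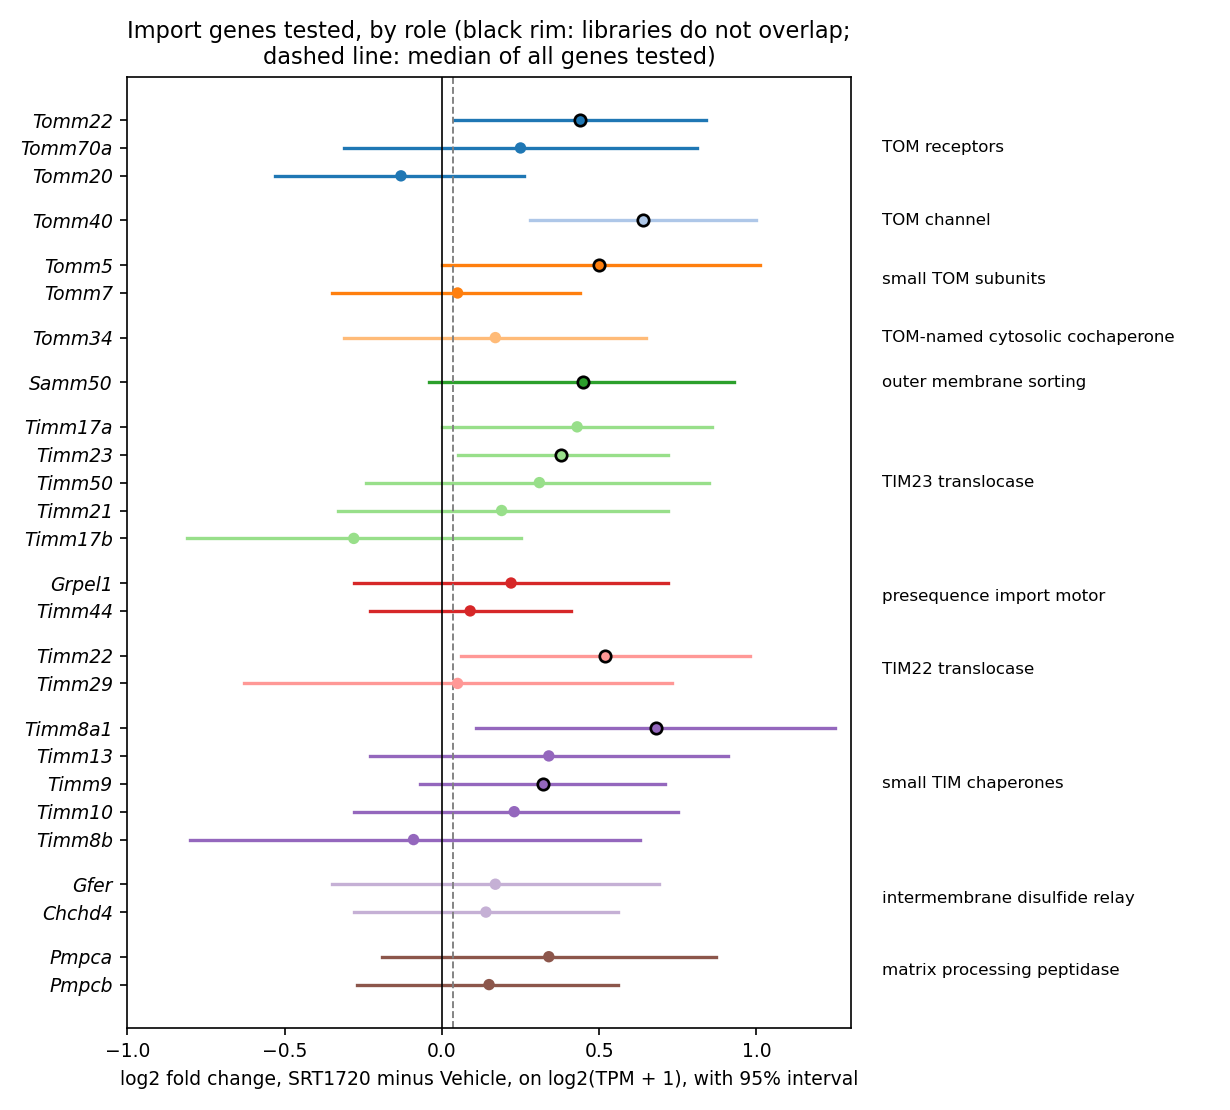
The horizontal axis gives the log2 fold change of each tested import gene, SRT1720 minus Vehicle on log2(TPM + 1), with its 95% interval from limma, and the vertical axis lists the genes by role. Of 26 points, 23 lie to the right of 0, and the rimmed points are the 8 genes whose libraries did not overlap between groups.

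The libraries of a group differed among themselves. Against each gene's mean over the 6 libraries, the median import gene lay at 0.31 in SRT1720 1, 0.15 in SRT1720 2 and −0.09 in SRT1720 3 on the log2 scale. The same median was 0.01 in Vehicle 1, −0.06 in Vehicle 2 and −0.28 in Vehicle 3. The groups therefore overlapped in this summary, since SRT1720 3 lay below Vehicle 1 and Vehicle 2. SRT1720 1 held the highest value of 16 of the 26 genes and Vehicle 3 the lowest value of 12. Over all genes tested, the medians were 0.07, 0.02 and −0.02 in SRT1720 1, 2 and 3 and 0.01, −0.02 and −0.05 in Vehicle 1, 2 and 3. Apart from a tie, they followed the order of the import medians, over a smaller range. With median-of-ratios scaling of the libraries the median import log2 fold change was 0.19, and 21 of 26 genes lay above 0.

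**Figure D2:**
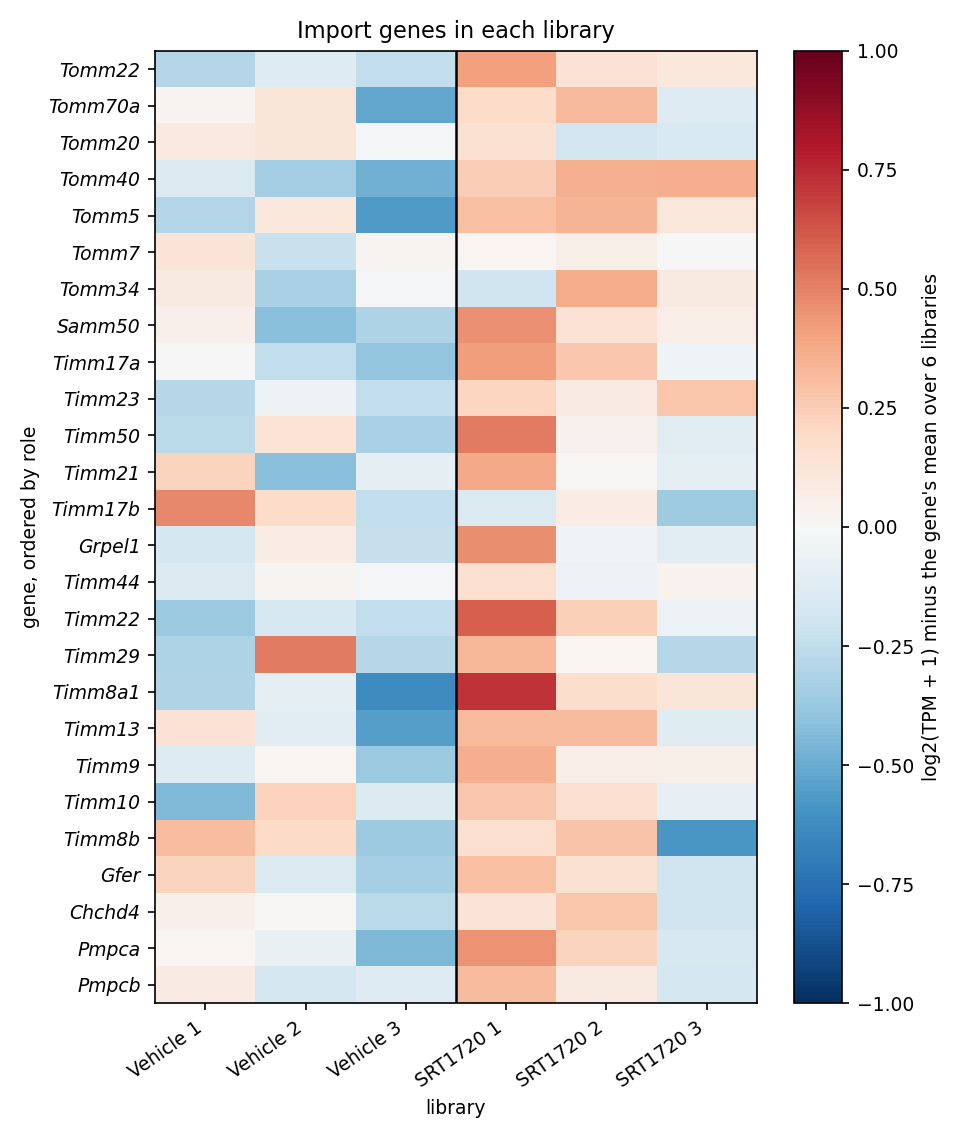
Each cell gives the log2(TPM + 1) value of an import gene (rows, by role) in a library (columns) minus that gene's mean over the 6 libraries. SRT1720 1 is the library with most red cells, with 24 of 26 genes above their mean, and Vehicle 3 the one with most blue cells, with 1 of 26 above.

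Other properties of the libraries also crossed the groups. Krt5, a keratin of basal urothelium, was at 16.4 and 9.61 TPM in SRT1720 1 and Vehicle 2 and at 425 to 1120 TPM in the other libraries. SRT1720 3 and Vehicle 3 were low in genes of chromosome 3 (medians of −0.39 and −0.41, against 0.14 to 0.26 elsewhere, log2) and high in mitochondrial ribosomal RNA (702 and 1560 TPM, against 135 to 198). Without both Krt5-low libraries the median import log2 fold change was 0.24, with 20 of 26 genes above 0. Without both libraries low in chromosome 3 genes it was 0.28, with 23 of 26 above 0. Of 18 urothelial and epithelial markers, 13 reached a mean of 1 TPM. Among markers of other cell types, 0 of 8 fibroblast, 0 of 6 endothelial, 0 of 6 smooth muscle and 2 of 8 leukocyte genes did so. Summed leukocyte markers were at 1.04 to 11.5 TPM with SRT1720 and 1.94 to 16.1 TPM with vehicle, and their part in the results was not tested.

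Positions on GRCm38 of the genes without overlap were as follows. Tomm40 (ENSMUSG00000002984) lies on chromosome 7 from 19701313 to 19715438, Tomm22 (ENSMUSG00000022427) on chromosome 15 from 79670861 to 79673400, and Tomm5 (ENSMUSG00000078713) on chromosome 4 from 45105208 to 45108114. Samm50 (ENSMUSG00000022437) lies on chromosome 15 from 84192241 to 84217267, Timm23 (ENSMUSG00000013701) on chromosome 14 from 32180162 to 32201898, and Timm22 (ENSMUSG00000020843) on chromosome 11 from 76406952 to 76416292. Timm8a1 (ENSMUSG00000048007) lies on chromosome X from 134537256 to 134541865 and Timm9 (ENSMUSG00000021079) on chromosome 12 from 71123173 to 71136684. Tomm22 and Samm50 share chromosome 15, and the 8 genes spread over 7 chromosomes.

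The 250 bases before the start annotated by RefSeq were read on GRCm38.p6 for 30 of the 33 genes, in 32 windows. The RefSeq start is not always the outer gene position given above. Most of the Timm8a1 window lies inside the positions given for that gene, as do a few bases of the Tomm40, Timm23 and Tomm22 windows. The ETS core CCGGAAG, bound by factors such as GABP, a known regulator of nuclear genes for mitochondrial proteins, was found on either strand in 12 of the 32 windows (37.5%), of 11 genes: Tomm22, Tomm70a, Tomm34, Timm23, Timm29, Timm10, Timm8a2, Timm8b, Grpel1, Pmpca and Pmpcb. It was in 15.4% of the 8049 windows of tested protein-coding genes and in 6.91% of all 32851 windows. The sets are unlike: the import windows also hold genes below the filter, such as Timm8a2, and both overlapping windows of Tomm34. The E-box CACGTG, bound by MYC and related factors, was in 12.5% of import windows and 9.07% of windows of tested genes. The core ACGTG of the hypoxia response element, which every CACGTG also holds, was in 18.8% and 23.2%. CCAAT was in 31.2% and 36.2%, and the NRF1 motif (GCGC, then any base, then TGCGC), whose factor is another known regulator of such genes, was in 9.38% and 9.28%. Among the 8 genes without overlap, Timm23 and Tomm22 held the ETS core and Timm8a1 and Timm9 the E-box. Tomm40 held neither, and carried 5 CCAAT matches, a number reached by 0.447% of windows of tested genes and 0.213% of all windows. That last count was looked for after the sequence had been seen, and no match shows that a factor binds. Of these, 4 windows are shown for the motifs they hold, from 5′ to 3′ along the gene's strand, with the matches in capitals: CCAAT on either strand in Tomm40 (chr7:19715430-19715679, minus strand), the ETS core in Timm23 (chr14:32201892-32202141, minus strand) and Tomm22 (chr15:79670618-79670867, plus strand), and the E-box in Timm8a1 (chrX:134541671-134541920, minus strand).
Tomm40: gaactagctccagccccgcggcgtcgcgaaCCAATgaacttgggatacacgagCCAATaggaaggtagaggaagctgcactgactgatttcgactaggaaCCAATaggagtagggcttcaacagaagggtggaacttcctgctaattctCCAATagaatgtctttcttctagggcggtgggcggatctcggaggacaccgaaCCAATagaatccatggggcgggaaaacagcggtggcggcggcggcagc
Timm23: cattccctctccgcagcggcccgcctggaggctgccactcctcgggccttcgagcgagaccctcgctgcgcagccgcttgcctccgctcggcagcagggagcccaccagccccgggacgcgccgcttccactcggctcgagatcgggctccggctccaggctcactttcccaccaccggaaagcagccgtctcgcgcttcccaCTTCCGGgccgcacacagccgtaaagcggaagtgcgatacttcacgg
Tomm22: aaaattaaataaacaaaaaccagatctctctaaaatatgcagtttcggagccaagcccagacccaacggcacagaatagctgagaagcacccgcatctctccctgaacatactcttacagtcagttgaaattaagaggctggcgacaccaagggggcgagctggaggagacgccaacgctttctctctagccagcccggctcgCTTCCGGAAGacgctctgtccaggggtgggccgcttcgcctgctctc
Timm8a1: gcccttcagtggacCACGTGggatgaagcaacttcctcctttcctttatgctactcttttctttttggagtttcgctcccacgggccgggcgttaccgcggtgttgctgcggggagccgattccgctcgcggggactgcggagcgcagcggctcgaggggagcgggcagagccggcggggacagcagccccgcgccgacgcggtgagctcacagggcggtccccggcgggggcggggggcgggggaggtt
The capitals in Tomm22 are 2 overlapping ETS cores on opposite strands, and those in Tomm40 are 5 separate CCAAT boxes.

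Tomm40, which forms the channel of the outer membrane, showed the smallest p of all import genes. SRT1720 libraries 1, 2 and 3 held 6.28, 6.84 and 6.91 TPM, and Vehicle libraries 1, 2 and 3 held 4.55, 3.85 and 3.41 TPM, the order kept for all genes that follow. All SRT1720 libraries were thus above all Vehicle libraries, and the spread within each group was smaller than the gap between the means. The means were 6.68 ± 0.35 and 3.94 ± 0.57 TPM (SD, n = 3), a ratio of 1.7, with a log2 fold change of 0.64 (SE 0.15, limma adjusted p = 0.279). The ratio rested on 1212 to 2658 reads per library, recovered from the deposited values. An exact two-sided permutation test gave p = 0.1 for Tomm40, as for each gene without overlap, and 3 libraries against 3 allow no smaller p. Tomm40l, a paralog of the channel gene, stayed below the filter, at 0.315 to 0.37 TPM with SRT1720 and 0.184 to 0.441 TPM with vehicle, and 64.3% of its exon bases overlap Nr1i3 on the opposite strand.

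Of the receptors, only Tomm22, which also organizes the complex, had no overlap between groups. It was at 38.1, 31.4 and 30.6 TPM with SRT1720 and at 22.9, 25.9 and 23.7 TPM with vehicle. Its log2 fold change was 0.44 (SE 0.17, limma adjusted p = 0.366). Tomm20, the receptor for presequences, was at 13.4, 10.3 and 10.7 against 12.9, 13.1 and 11.7 TPM. Here the Vehicle libraries lay inside the SRT1720 range, and the log2 fold change of −0.13 had a 95% interval of −0.53 to 0.26. Tomm70a, the receptor that takes carrier precursors from cytosolic chaperones, was at 23.9, 26.5 and 19.0 against 21.3, 22.9 and 14.3 TPM. SRT1720 3 and Vehicle 3 were the lowest libraries of their groups in Tomm70a, and the groups overlapped.

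Of the small TOM subunits, which stabilize the channel, Tomm5 separated the groups and Tomm7 did not. Tomm5 was at 13.3, 13.8 and 11.6 TPM with SRT1720 and at 8.49, 11.5 and 6.88 TPM with vehicle (log2 fold change 0.50, SE 0.21, limma adjusted p = 0.4). The groups of Tomm5 were separated only narrowly, by SRT1720 3 and Vehicle 2. Tomm7 had nearly the same mean in both groups, 19.5 ± 0.44 and 19.0 ± 2.4 TPM (SD, n = 3), and its log2 fold change of 0.05 had a 95% interval of −0.35 to 0.44. The fold change of Tomm7 turned to −0.05 without Vehicle 2, −0.05 without both SRT1720 1 and Vehicle 2, and −0.01 with median-of-ratios scaling. Tomm6 was listed at 0 in every library. On the annotation used here, 76.0% of the exon bases of Tomm6 are also exon bases of Gm21981 on the same strand, and the handling of reads shared by 2 genes is not given in the sources used here. Tomm34, a cytosolic cochaperone named with this family, was at 3.9 to 6.28 TPM with SRT1720 and 3.51 to 4.98 TPM with vehicle.

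Samm50 was at 35.6, 28.5 and 26.9 TPM with SRT1720 and at 26.6, 19.0 and 20.6 TPM with vehicle. SRT1720 3 and Vehicle 1 nearly touched, and the log2 fold change was 0.45 (SE 0.20, limma adjusted p = 0.435).

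**Figure D3:**
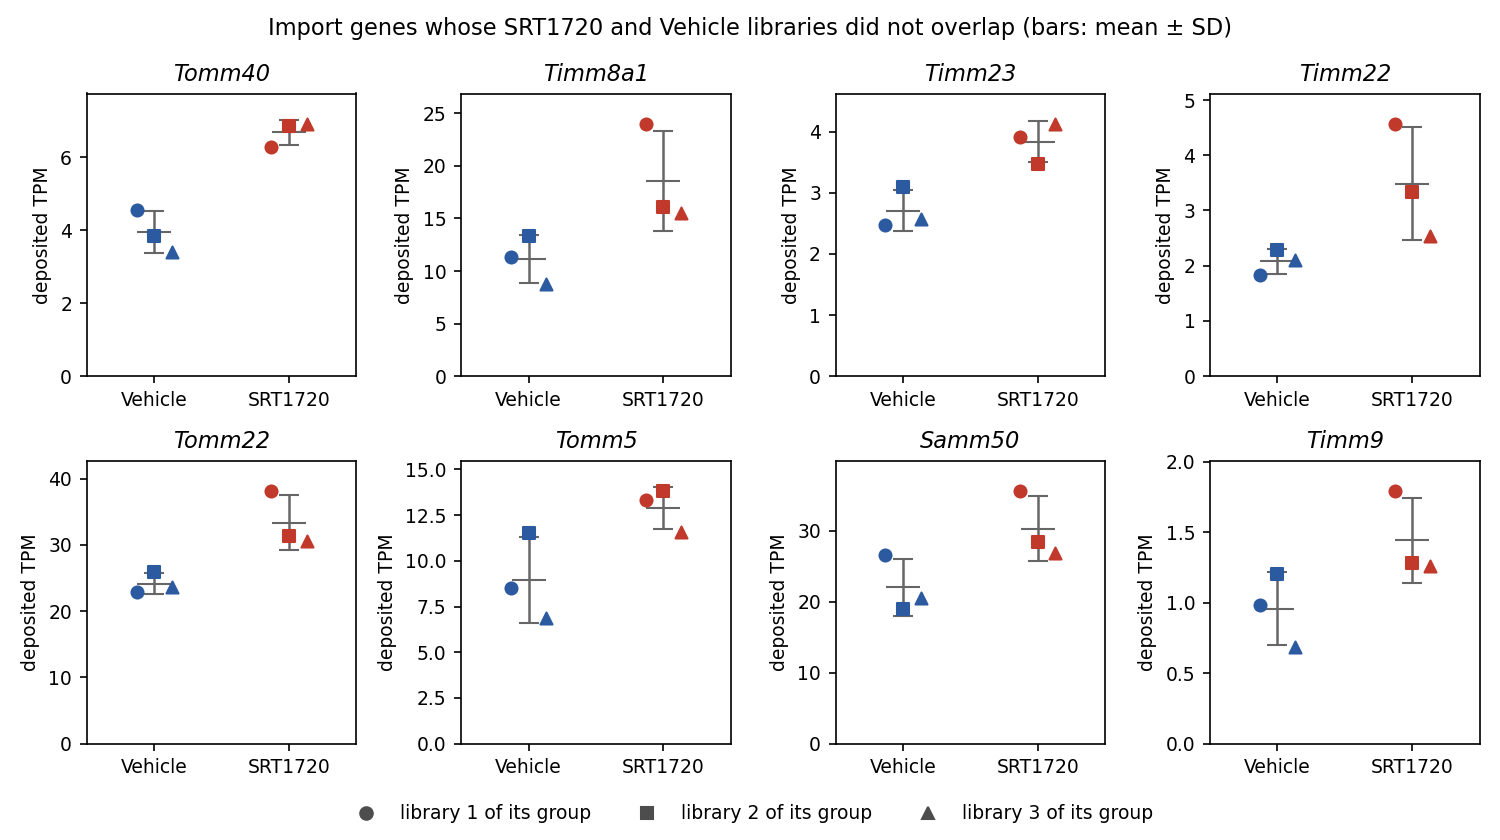
Each panel plots the deposited TPM of 1 import gene (vertical axis, from 0) in the Vehicle and SRT1720 libraries, with bars for the mean ± SD of 3 libraries. The distance between the groups is widest against the spread in Tomm40 (3.41 to 4.55 against 6.28 to 6.91 TPM) and narrow in Samm50, Tomm5 and Timm9.

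In the TIM23 translocase of the inner membrane, 4 of 5 genes had log2 fold changes above 0. Timm23, the channel-forming subunit, was at 3.92, 3.47 and 4.13 TPM with SRT1720 and at 2.47, 3.09 and 2.57 TPM with vehicle. These libraries did not overlap, and the log2 fold change was 0.38 (SE 0.14, limma adjusted p = 0.361). Timm17a, which pairs with Timm23, was at 3.87, 3.4 and 2.55 against 2.64, 2.08 and 1.77 TPM, and overlapped because SRT1720 3 lay below Vehicle 1. Timm17b, the other TIM17 form, was at 3.04, 3.7 and 2.49 against 5.23, 4.05 and 2.76 TPM, with the highest library in the Vehicle group (log2 fold change −0.28, 95% interval −0.81 to 0.25). Timm50, the receptor that receives presequences from TOM, was at 14.1, 9.89 and 8.8 against 7.77, 10.6 and 7.43 TPM. SRT1720 1 and Vehicle 2, the Krt5-low libraries, were the highest of their groups in Timm50. Timm21, which links TIM23 to TOM, was at 4.82 to 7.08 TPM with SRT1720 and 3.66 to 6.26 TPM with vehicle, and its log2 fold change of 0.19 turned to −0.1 without both SRT1720 1 and Vehicle 2.

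The motor that pulls presequence proteins into the matrix showed small differences. Timm44, its scaffold on the translocase, was at 3.54, 2.89 and 3.15 against 2.66, 3.14 and 2.99 TPM, with a log2 fold change of 0.09 and a 95% interval of −0.23 to 0.41. Grpel1, the nucleotide exchange factor of the motor, was at 9.72 to 14.9 TPM with SRT1720 and 8.82 to 11.2 TPM with vehicle. Pam16 and Dnajc19, the J-protein pair that regulates the motor's ATPase, stayed below the filter. Dnajc19, on chromosome 3, was at 0.716, 0.711 and 0.397 TPM with SRT1720 and at 0.584, 0.664 and 0.33 TPM with vehicle. Its 2 lowest libraries, SRT1720 3 and Vehicle 3, were those low in chromosome 3 genes as a whole. These libraries were also the 2 lowest for some import genes elsewhere, such as Gfer on chromosome 17 and Pmpca on chromosome 2. A link of Dnajc19 to chromosome 3 was not tested. Pam16 was at 0.827, 0.592 and 0.56 against 0.833, 1.19 and 0.44 TPM, from 36 to 89 reads. Pam16 (mean 0.74 TPM) lay just outside the filter of 1 TPM and Timm9 (mean 1.2 TPM) just inside it.

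On the carrier path, Timm22, the channel of the TIM22 translocase, was at 4.57, 3.34 and 2.54 TPM with SRT1720 and at 1.84, 2.29 and 2.1 TPM with vehicle. All SRT1720 libraries were higher, with SRT1720 1 far above the others (log2 fold change 0.52, SE 0.19, limma adjusted p = 0.361). Timm29, another subunit of this translocase, was at 11.9, 9.41 and 7.41 against 7.28, 13.7 and 7.42 TPM. The high libraries of Timm29 were again the Krt5-low pair, SRT1720 1 and Vehicle 2, and no direction held: its log2 fold change of 0.05 was −0.11 without SRT1720 1, −0.1 without Vehicle 1 and −0.08 without Vehicle 3, and −0.0028 and −0.00073 with median-of-ratios scaling and quantile normalization. Timm10b, also a subunit of the TIM22 complex, stayed below the filter at 0.108, 0.0765 and 0.0529 against 0.0811, 0.0643 and 0.043 TPM, from 19 to 50 reads.

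The small TIM chaperones, which keep hydrophobic precursors soluble between the membranes, included Timm8a1 and Timm9 among the genes without overlap. Timm8a1 was at 24.0, 16.1 and 15.5 TPM with SRT1720 and at 11.3, 13.3 and 8.77 TPM with vehicle, a ratio of means of 1.67 (log2 fold change 0.68, SE 0.24, limma adjusted p = 0.355). SRT1720 1 stood well above the other SRT1720 libraries, and no library overlapped. Timm9 was at 1.79, 1.28 and 1.26 against 0.985, 1.2 and 0.685 TPM, where SRT1720 3 and Vehicle 2 nearly met (log2 fold change 0.32, limma adjusted p = 0.48). Timm13, the partner of Timm8a1 in its chaperone complex, was at 16.8, 16.8 and 12.1 against 14.8, 12.2 and 8.77 TPM. Timm10, the partner of Timm9, was at 8.54, 7.85 and 6.49 against 4.83, 8.27 and 6.19 TPM. Both partners overlapped between groups. Timm8b was at 33.4, 36.4 and 19.6 against 37.1, 34.0 and 22.8 TPM, again lowest in SRT1720 3 and Vehicle 3, and its log2 fold change of −0.09 turned to 0.18 without SRT1720 3 and 0.05 without Vehicle 1. Timm8a2 had 1 read in Vehicle 1 and Tomm20l, a TOM receptor paralog, 1 read in SRT1720 2, and both were listed at 0 elsewhere.

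Chchd4 and Gfer form the disulfide relay that folds proteins in the intermembrane space. Chchd4, the oxidoreductase, was at 2.3 to 3.59 TPM with SRT1720 and 2.14 to 2.92 TPM with vehicle. Gfer, the oxidase that recharges it, was at 7.3 to 10.7 against 6.55 to 10.1 TPM. The log2 fold changes were 0.14 and 0.17, and both genes were lowest in SRT1720 3 and Vehicle 3 within their groups. Pmpca and Pmpcb, the subunits of the matrix processing peptidase, had log2 fold changes of 0.34 (95% interval −0.19 to 0.87) and 0.15 (95% interval −0.27 to 0.56). Pmpca was at 11.2, 9.42 and 7.0 against 8.05, 7.47 and 5.53 TPM. Pmpcb was at 4.49, 3.7 and 2.91 against 3.68, 2.91 and 3.04 TPM, and its fold change was −0.02 without both SRT1720 1 and Vehicle 2.

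Several import genes have processed pseudogenes, copies of their mRNA inserted elsewhere in the genome, and reads may be split between gene and copy. Transcripts of 9 of the 33 genes matched an annotated pseudogene at 90% identity or more, and 7 genes had a copy with a mean of at least 1 TPM. For Timm23, the copies Gm10171 and Gm10233 matched at 100% identity, and with 2 further copies they left 19.5% of the recovered reads on the gene itself. Gm10171 was at 54.8, 47.3 and 58.5 TPM with SRT1720 and at 28.9, 37.8 and 37.3 TPM with vehicle, without overlap, as in Timm23. Gene and copies of Timm23 together held 247, 218 and 263 reads with SRT1720, scaled to library size (RPM), and 143, 175 and 168 with vehicle. The groups of that sum did not overlap either, which had to follow since gene and copies each separated them. The log2 fold change of the sum was 0.59 (SE 0.17, limma adjusted p = 0.393 on recovered reads).

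Timm8a1 matched Gm9797, annotated as a transcribed processed pseudogene, at 100% identity. Gm9797 was at 33.3, 22.7 and 21.6 TPM with SRT1720 and at 17.0, 17.4 and 11.4 TPM with vehicle. Whether its reads came from its own RNA or from that of Timm8a1 was not tested. The sum of Timm8a1 and Gm9797 was 167, 113 and 108 against 81.4, 89.8 and 59.0 RPM, in the same order as the gene alone. Tomm5 and its copy Gm8069 gave 67.5 to 79.7 against 39.9 to 66.1 RPM, also without overlap. For Timm8a1 and Tomm5 too, gene and copy each separated the groups, so their sums had to. Tomm20 held 52.9% of the reads of its family of 8 copies, and the sum of 339, 260 and 259 against 322, 355 and 310 RPM overlapped, with SRT1720 2 and SRT1720 3 lowest. Dnajc19 held 38.8% of its family's reads. Its sum with Dnajc19-ps was 26.2, 24.1 and 15.3 against 18.5, 19.7 and 12.4 RPM, so gene and copy together overlapped too. Tomm40, Timm22, Samm50 and Timm9 had no annotated copy by this search.

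**Figure D4:**
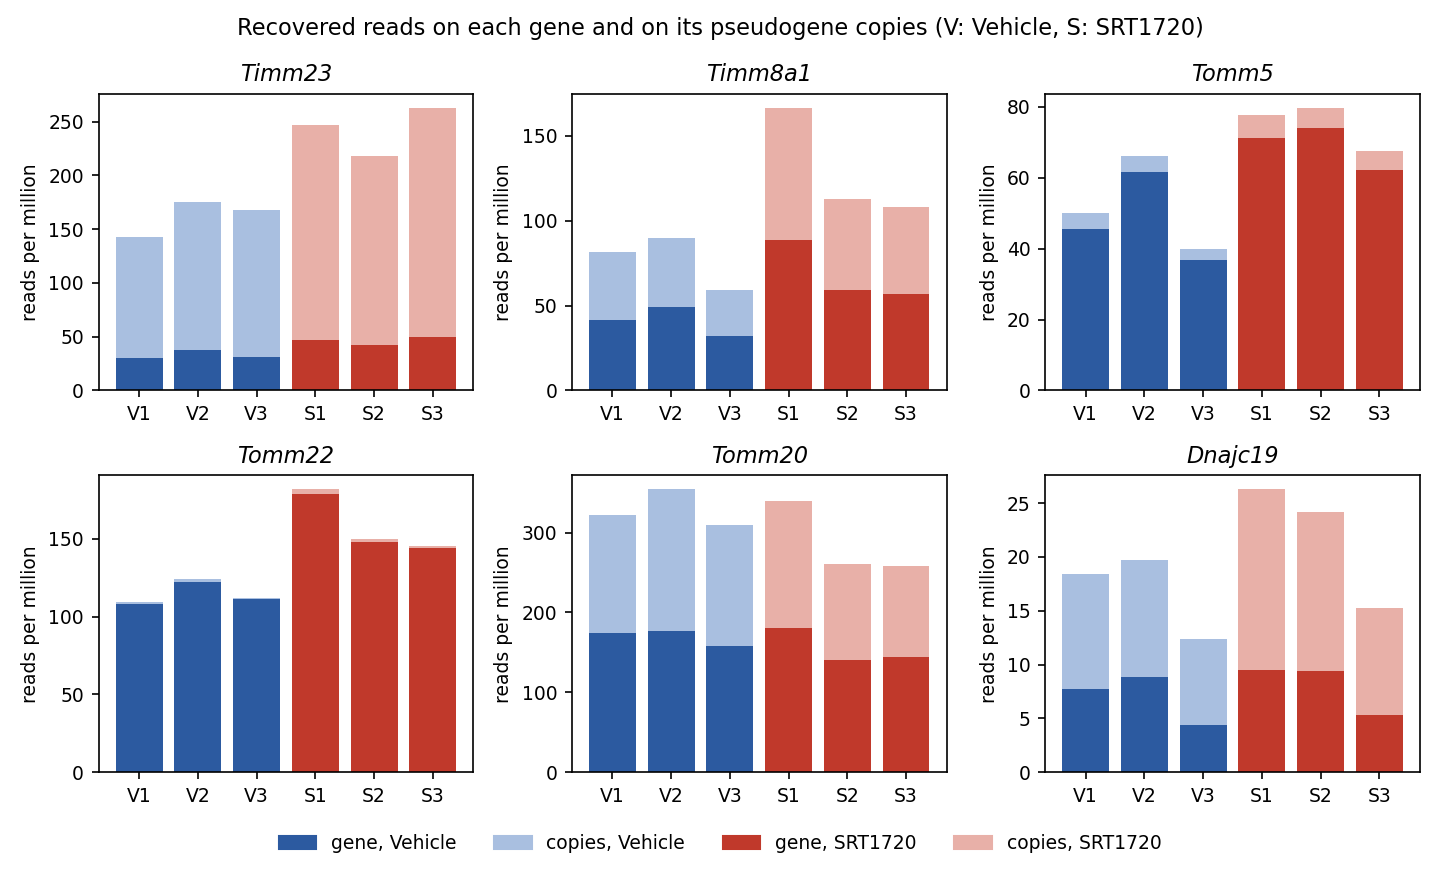
Bars give recovered reads, scaled to library size (RPM), in each library on 6 import genes (dark) and, stacked above, on their pseudogene copies (pale), from 0. In Timm23, Timm8a1, Tomm5 and Tomm22 the stacked bars of all SRT1720 libraries are taller than those of all Vehicle libraries, and in Tomm20 and Dnajc19 they overlap.

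Other genes of the import pathway, the motor's Hsp70 partners, metaxins, membrane insertases, peptidases and matrix chaperones, were read from a list of 18 that was also drawn up with earlier results known. Of these, 15 were tested, and 11 had log2 fold changes above 0 (73.3%, against 54.8% of all genes). None passed limma's test (adjusted p = 0.385 to 0.987). At an unadjusted p under 0.05 there were 2 (13.3%), both higher with SRT1720, against 7.86% of all genes in that direction and 12.4% in either. In 4 of the 15 (26.7%) the SRT1720 libraries lay above the Vehicle libraries without overlap, against 12.1% of all genes. In 0 of the 15 they lay below without overlap, against 7.75% of all genes. Immp2l, a partner that did lie below without overlap, is missing from this count because its mean of 0.713 TPM missed the filter. The Vehicle mean of Immp2l was 1.04 TPM but its SRT1720 mean only 0.383 TPM. Its exclusion therefore depends on the group where it is lower. Hspa9, the matrix Hsp70 that drives the motor, was at 104, 51.9 and 47.3 TPM with SRT1720 and at 85.3, 148 and 63.4 TPM with vehicle. Its highest libraries were SRT1720 1 and Vehicle 2, and its log2 fold change was −0.54 with a 95% interval of −1.52 to 0.43. Hspd1, the matrix chaperonin that folds imported proteins, was at 88.8, 125 and 87.6 against 81.7, 75.4 and 52.2 TPM, without overlap. Dnajc15, a paralog of Dnajc19, was at 12.5, 14.9 and 16.6 against 11.5, 8.31 and 10.8 TPM. Dnlz, which keeps Hspa9 soluble, was at 2.46, 2.28 and 1.65 against 1.45, 1.53 and 1.03 TPM. Immp1l, a subunit of the inner membrane peptidase, was at 4.98, 5.63 and 4.89 against 4.58, 3.13 and 4.53 TPM. In all 4 of these genes the lowest SRT1720 library was above the highest Vehicle library.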

How the data were processed

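The authors deposited 1 table of TPM values, a unit taken from the table's name, with 1 column per library. Per the submitters' processing notes, STAR 2.6.0 and GRCm38 belong to the authors' pipeline, in roles the notes do not state. The sources used here do not name counter, annotation or length definition. Deposited TPM columns sum to 161231 to 171577, which is not the total a TPM column has by definition, so values were read as relative levels and not compared between genes. Names came from GENCODE M21, which matched 51719 rows and left 193 unmatched.

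Whole reads were recovered from the steps between values (all 27713 rows above 0, all values of a row within 0.01 of a whole read, taking the smallest solution; a row above 0 in 1 library always has one), at 18159660 to 22722475 reads per library. Replicates of a group differed beyond sampling noise (median chi-square per degree of freedom 13.6 to 29.27).

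Groups came from sample titles. limma 3.58.1 in R 4.3.3 (lmFit, eBayes with a mean trend) was run on log2(TPM + 1) for the 9287 genes whose mean reached 1 TPM. Adjustment was by Benjamini-Hochberg, and 0.05 the threshold. Fold changes on this scale understate those of low genes. Pseudogene copies were found with BLAST+ 2.17.0 (at least 90% identity over 50% of the copy and 150 bases). Python 3.11.15, pandas 2.3.3 and matplotlib 3.10.9 were used. Every import gene is named; values in every library are given for genes without overlap, the 3 smallest p, core subunits and genes below the filter. Members and lists were chosen with earlier results of these data known.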

Additional observations from a re-analysis of the deposited data

How the results depend on the processing

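Under 17 other settings the median log2 fold change of import genes stayed above 0, at 0.18 to 0.36. In none of them did an import gene or any other gene pass the adjusted test. Single-library medians of the import genes had an SD of 0.175 within groups. All settings reuse the same libraries, so the range over settings does not measure the spread between replicates. The count at an unadjusted p under 0.05, 7 as reported, was 1 to 6 when 1 library was left out. It was 4 at a mean of at least 5 TPM, where fewer genes were tested, 4 with SRT1720 1 and Vehicle 2 both left out, and 2 with SRT1720 3 and Vehicle 3 both left out. By voom on recovered reads, a setting added after the data were seen, it was 7 of 30 import genes, against 10.6% of all genes, with or without the reads of pseudogene copies. Over all 9287 genes 1153 were at an unadjusted p under 0.05, and 1133 with the replicate block. Leaving out SRT1720 1, 2 or 3 gave 1010, 523 and 837, and leaving out Vehicle 1, 2 or 3 gave 1054, 1044 and 1007. The number was 1033 with SRT1720 1 and Vehicle 2 both left out and 682 with SRT1720 3 and Vehicle 3 both left out. At a mean of at least 5 TPM it was 498 of 3594 genes. With the replicate block the count of import genes was 5 and the median 0.24, and 0 genes passed. Deviations from the group means correlated at −0.197, −0.262 and 0.788 between same-numbered libraries 1, 2 and 3. As a hint from the data and not the design, SRT1720 1 correlated best with Vehicle 2 (0.721) and SRT1720 2 with Vehicle 1 (0.676). The numbers were not taken as pairs. Of 26 genes, 21 kept their direction in every setting. Timm29 was −0.0028 with median-of-ratios scaling, −0.00073 with quantile normalization and −0.11 to 0.32 with 1 library left out (below 0 without SRT1720 1, Vehicle 1 or Vehicle 3). Tomm7 was −0.01 with median-of-ratios scaling, −0.05 to 0.12 with 1 library left out (below 0 without Vehicle 2) and −0.05 with SRT1720 1 and Vehicle 2 both left out. Timm8b was −0.29 to 0.18 with 1 library left out (above 0 without Vehicle 1 or SRT1720 3). Timm21 and Pmpcb were −0.1 and −0.02 with SRT1720 1 and Vehicle 2 both left out. The cause of these shifts was not tested. Low depth limits Pam16, Dnajc19, Timm10b and Tomm40l, and Tomm6, Tomm20l and Timm8a2 had at most 1 read.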

Other observations

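The 2 forms of TIM17 stood in different proportion in the groups. The ratio of Timm17a to Timm17b TPM was 1.27, 0.918 and 1.02 in SRT1720 1, 2 and 3 and 0.504, 0.512 and 0.64 in Vehicle 1, 2 and 3. The groups did not overlap, with means of 1.07 ± 0.18 and 0.552 ± 0.076 (SD, n = 3), and an exact two-sided permutation test gave p = 0.1, the smallest that 3 libraries against 3 allow. Neither gene alone was free of overlap. The ratio was chosen after its values were seen, and since gene lengths are not given it compares libraries and not the amounts of the 2 mRNAs.

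Immp2l, the other subunit of the inner membrane peptidase, was lower with SRT1720. It was at 0.401, 0.254 and 0.494 TPM with SRT1720 and at 1.0, 0.772 and 1.35 TPM with vehicle, so its SRT1720 libraries all lay below its Vehicle libraries. The gene had 39 to 189 reads per library and stayed below the filter, so limma did not test it, and the exact permutation p was 0.1.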
